A study of Mus musculus with 15 samples.

Results

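10 of the 39179 genes listed for each mouse are described here, the titin-linked and load-responsive genes of the sarcomere Ttn, Neb, Ankrd1, Ankrd2, Ankrd23, Csrp3, Xirp1, Xirp2, Flnc and Nrap. They were taken from a fixed list of names, and all 10 were found in the counts of all 15 mice and passed the filter on low counts in every comparison. The RNA came from quadriceps muscle of C57BL/6 mice. At 3 mo each genotype had 4 mice, and at 19 mo there were 3 wild-type and 4 V338Y animals. V338Y mice carry on both alleles an amino acid exchange in Mrps5, a protein of the small subunit of the mitochondrial ribosome, which makes mitochondrial protein synthesis less accurate and which the animals carry in every tissue, not in muscle alone. The comparisons ask how these genes differed between 3 mo and 19 mo in each genotype, between genotypes at each age, and whether the difference with age itself depended on the genotype.

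Skeletal muscle fibres are built of sarcomeres, in which titin spans from the Z-disc to the M-band as a molecular spring and nebulin runs along the thin filament. Several small proteins sit on titin or at the Z-disc, and the transcripts of some of them are known to rise when muscle is stretched or loaded. The ankyrin repeat proteins encoded by Ankrd1, Ankrd2 and Ankrd23 bind the elastic I-band part of titin and can also enter the nucleus. Csrp3 encodes muscle LIM protein, Flnc the actin crosslinker filamin C, Xirp1 and Xirp2 the actin-binding Xin proteins, and Nrap a nebulin-related protein of developing myofibrils and myotendinous junctions.

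Short stretches of promoter sequence are shown because TEAD and MEF2, transcription factors known from muscle, bind short motifs upstream of genes of this kind. RefSeq promoter windows on GRCm38.p6 were listed for 8 of the 10 members with 11 transcript starts, and the 250 bases before each start were searched on both strands for 4 motifs. The MCAT motif of TEAD factors, CATTCC or its reverse complement GGAATG, stood before Ankrd1, Ankrd23 and Flnc. It was found before 12.6% of all 32851 starts listed. Capitals mark the motif in the following stretches, each written 5′ to 3′ on the strand of the gene.
Ankrd1, chr19:36120037-36120066, minus strand: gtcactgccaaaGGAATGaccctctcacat
Ankrd1, chr19:36119950-36119979, minus strand: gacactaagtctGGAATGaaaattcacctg
Ankrd23, chr1:36535842-36535871, minus strand: cccagtgggccaCATTCCcagaacggtatt
Flnc, chr6:29433140-29433169, plus strand: cgggccgggcggCATTCCtgggaggccggc
Both Ankrd1 stretches lie in an exon annotated for a longer transcript of the gene, while the Ankrd23 and Flnc stretches hold 0 exonic bases. The MEF2 motif stood before Ttn and Xirp2, and before 2.92% of all starts, and is again in capitals.
Ttn, chr2:76982694-76982723, minus strand: ttctgaaaggCTAAATTTAGcactgccaat
Xirp2, chr2:67445918-67445947, plus strand: agctcagttcCTAAAAATAGgtgctaggtt
None of these matches overlapped a match of another motif. The CArG box of serum response factor, found before 1.47% of starts, was not in the window of any member. The E-box CANNTG of myogenic factors is common, with a match before 66.2% of starts. Of the members with a listed window only Flnc had no E-box. The E-box is shown for Ankrd2 and Csrp3, the pair whose levels moved most alike between mice. The stretches are the 100 bases from -150 to -51 before a start of each.
Ankrd2, chr19:42035877-42035976, plus strand: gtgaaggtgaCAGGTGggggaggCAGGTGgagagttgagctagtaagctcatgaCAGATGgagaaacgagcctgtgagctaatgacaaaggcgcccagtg
Csrp3, chr7:48848102-48848201, minus strand: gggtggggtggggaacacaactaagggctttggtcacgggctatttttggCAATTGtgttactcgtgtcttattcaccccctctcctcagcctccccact
In these 100 bases Ankrd2 had 3 E-boxes and Csrp3 had 1. Over the 250 bases searched Ankrd2 still had 3, and Csrp3 had 4 before this start and 4 before its other start. A match of letters is a description of the window and does not show that a factor is bound there.

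Each library held 8250653 to 18968132 counts assigned to genes. Values are given in CPM, gene counts brought to a common library size after TMM adjustment. The p-values set a difference between groups against the spread between these mice. Mrps5 itself, in which the mutation changes an amino acid, stood at 14.96 to 27.5 CPM over the 15 mice, so its level does not check the genotype labels. The methods describe the 3 mo animals as female. All 8 of them had Ddx3y, a gene of the Y chromosome, at 163 to 202 CPM and Xist at 0.575 CPM or less, and all 7 mice of 19 mo had Xist at 506 to 631 CPM and Ddx3y at 0.0827 CPM or less. Age and sex therefore cannot be told apart in any comparison of 19 mo with 3 mo below. The 19 mo mice numbered 5, of either genotype, stood apart from the others of their age in fibre-type genes. Myh2, the myosin of fast 2A fibres, was at 4246 CPM in wild-type mouse 5 and 4880 CPM in V338Y mouse 5 but at 243 to 876 CPM in the other 19 mo mice. Age and genotype differences of the members that rest on these mice are given with and without them. Markers of skeletal muscle fibres (Ckm, Acta1, Mylpf, Tnnt3 and Pvalb) were high in every mouse. Of the heart genes listed Nppa and Myl7 were at 0 in all 15 libraries, while Tnni3 had 1 to 11 and Myh6 had 4 to 113 counts per mouse. In whole muscle, fewer cells of a type and less RNA per cell cannot be told apart.

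Titin transcripts took 10.5 to 16.4% of all counts of a mouse, and the 10 members together 12.96 to 19.1%. Counts per gene grow with transcript length, so levels of different genes are compared as CPM per kilobase of merged exons. On this scale Ttn, with 116825 exonic bases, was the most abundant member in 3 mo wild-type mice at 1368 ± 151 CPM per kilobase (SD, n = 4). Neb followed at 738 ± 98.6, Ankrd23 at 354 ± 49.9, Xirp2 at 308 ± 40.0, Nrap at 184 ± 17.8 and Flnc at 51.2 ± 6.80 CPM per kilobase. Ankrd2 at 32.1 ± 7.80, Xirp1 at 11.6 ± 3.90, Csrp3 at 7.74 ± 0.688 and Ankrd1 at 3.29 ± 1.35 CPM per kilobase were the lowest. The ranges of Ankrd23 and Xirp2 overlapped, as did those of Xirp1 and Csrp3, and all other neighbours in this order were separate. In 19 mo wild-type mice the order changed below Ankrd23, where Nrap at 364 ± 126.3 CPM per kilobase stood beside Xirp2 at 354 ± 12.96, its range overlapping those of Ankrd23 and Xirp2, and Flnc reached 139 ± 57.3 CPM per kilobase (n = 3). Csrp3 was then the lowest member at 6.44 ± 8.99 CPM per kilobase, with a range that overlapped that of Ankrd1. In 3 mo V338Y mice the order was that of the wild-type mice except that Csrp3 at 13.3 ± 13.4 stood above Xirp1 at 8.43 ± 1.81 CPM per kilobase. The ranges of Flnc, Ankrd2 and Csrp3 each overlapped that of the next gene. In 19 mo V338Y mice Ttn was at 985 ± 215 and Neb at 647 ± 125.4 CPM per kilobase, with overlapping ranges. There Neb stood clear of Ankrd23, and Flnc at 125.3 ± 44.2 clear of Xirp1 at 30.0 ± 22.6 CPM per kilobase, while all other neighbours overlapped.

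In wild-type mice 5 of the 10 members were higher at 19 mo with an edgeR adjusted p under 0.05, namely Ankrd1, Ankrd23, Xirp1, Flnc and Nrap, and 0 were lower. Of all 13657 genes tested 36.2% passed this threshold in either direction, and 18.3% were higher. In V338Y mice 3 members were higher, Ankrd1, Xirp1 and Flnc, and 0 lower, where 46.9% of 13868 genes passed and 24.4% were higher. The genes called were also those whose age groups did not overlap, against 43.4% of all genes in wild-type animals (21.7% separate and higher) and 42.2% in V338Y animals (20.3% separate and higher). The median log2 fold change of the 10 members was 0.35 in wild-type animals and -0.13 in V338Y animals, beside 0.02 and 0.07 over all genes. The plot of the members by mouse shows these levels.

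**Figure D1:**
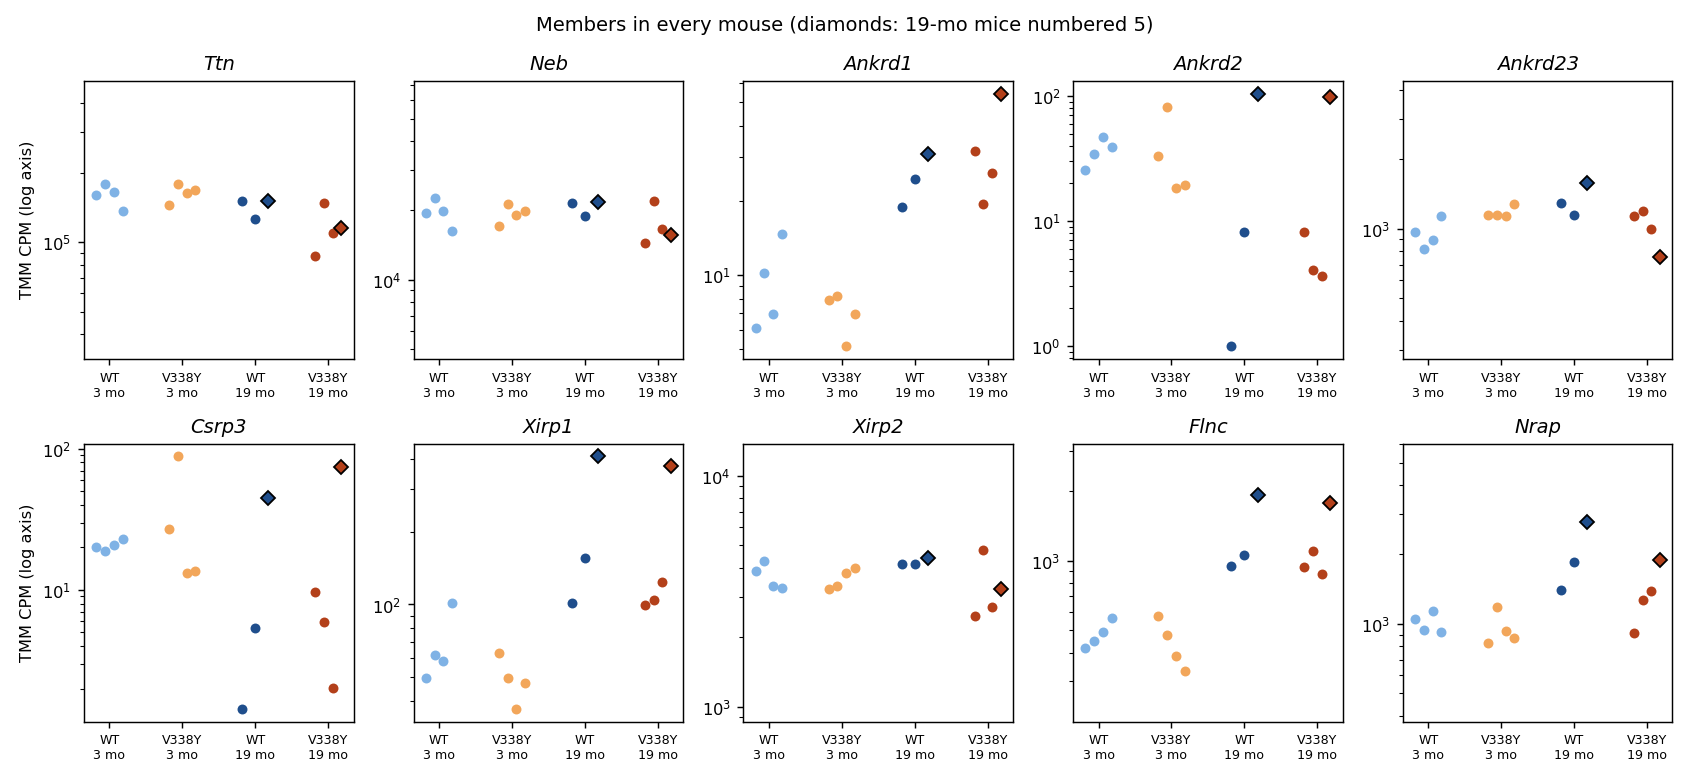
Level of each member in CPM after TMM scaling (log axis) in every mouse, 1 point per mouse, for wild-type (WT) and V338Y mice at 3 mo and 19 mo, with black-edged diamonds for the 19 mo mice numbered 5. Flnc and Ankrd1 stand higher in all 7 mice of 19 mo than in all 8 of 3 mo, and for Ankrd2 and Csrp3 the diamonds lie far above the other 19 mo mice.

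Ankrd1 (chr19:36111961-36120099, minus strand, GRCm38 as for all positions that follow) encodes a titin-bound repressor of transcription that is a widely used target of stretch and of YAP/TEAD. At 3 mo it stood at 6.11, 10.2, 6.97 and 14.7 CPM in wild-type and at 7.93, 8.20, 5.13 and 6.92 CPM in V338Y mice. In the older mice it stood at 18.8, 24.4 and 30.9 CPM in wild-type and at 31.9, 19.4, 25.8 and 54.2 CPM in V338Y mice. The age groups did not overlap in either genotype, and V338Y mouse 5 was the highest of all. In wild-type mice the log2 fold change was 1.38 ± 0.28 (SE, edgeR adjusted p = 0.00553), and in V338Y mice it was 2.23 ± 0.30 (edgeR adjusted p = 0.000469). Without the 19 mo mouse 5 it was 1.18 and 1.88 respectively, still past the threshold.

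Flnc (chr6:29433256-29461883, plus strand) encodes filamin C, which crosslinks actin at the Z-disc and costameres and gathers at sites of myofibril damage. In 3 mo mice it ranged from 418 to 566 CPM in wild-type and from 334 to 575 CPM in V338Y animals. At 19 mo it was at 949, 1054 and 1930 CPM in wild-type and at 942, 1106, 879 and 1784 CPM in V338Y mice. Every 19 mo mouse was above every 3 mo mouse, and both mice numbered 5 were highest. Flnc rose by 1.45 ± 0.23 on the log2 scale (edgeR adjusted p = 0.00190) in wild-type and by 1.42 ± 0.25 (edgeR adjusted p = 0.00157) in V338Y mice. Without mouse 5 the rise was 1.05 and 1.16, past the threshold in both.

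Xirp1 (chr9:120013755-120023598, minus strand) encodes Xin, an actin-binding protein of Z-discs and junctions that binds filamin C. Its levels at 3 mo were 49.9, 61.9, 58.3 and 101.1 CPM in wild-type and 62.8, 49.6, 37.0 and 47.6 CPM in V338Y mice. At 19 mo they were 101.3, 155.9 and 409 CPM in wild-type and 99.8, 104.3, 124.4 and 372 CPM in V338Y mice. In wild-type mice the separation was narrow, as 3 mo mouse 4 lay just under 19 mo mouse 2, whereas the V338Y age groups were well apart. The log2 fold change of 1.71 ± 0.43 (edgeR adjusted p = 0.0135) in wild-type mice became 0.92 (edgeR adjusted p = 0.0302) without 19 mo mouse 5. In V338Y mice 1.84 ± 0.41 (edgeR adjusted p = 0.00556) became 1.18 (edgeR adjusted p = 0.000459). Xirp1 shares its strand and part of its span with Cx3cr1, a receptor of macrophages that itself had 1 to 27 counts per mouse.

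Nrap (chr19:56320035-56390037, minus strand) encodes an actin-binding scaffold of myofibril assembly. It stood at 1052, 942, 1135 and 927 CPM in wild-type and at 823, 1186, 930 and 872 CPM in V338Y mice of 3 mo. The 19 mo values were 1398, 1850 and 2763 CPM in wild-type and 916, 1274, 1394 and 1899 CPM in V338Y mice. The wild-type age groups were separate, and in V338Y mice 19 mo mouse 2 fell within the 3 mo range. Nrap rose by 0.98 ± 0.21 on the log2 scale (edgeR adjusted p = 0.00634) in wild-type mice, and by 0.67 without 19 mo mouse 5. In V338Y mice the difference was 0.54 ± 0.22 and did not pass (edgeR adjusted p = 0.0654). It passed with DESeq2 (adjusted p = 0.0313) and without 19 mo mouse 2 (edgeR adjusted p = 0.0186), while without 19 mo mouse 5 it was 0.35 (edgeR adjusted p = 0.131). Over the fits that left out each V338Y mouse it ran from 0.35 to 0.69, with an edgeR adjusted p = 0.150 at the highest.

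Ankrd23 (chr1:36530188-36536883, minus strand), which encodes the diabetes-related ankyrin repeat protein DARP, was much more abundant than its 2 relatives. It was at 969, 820, 896 and 1135 CPM in wild-type and at 1143, 1144, 1133 and 1282 CPM in V338Y mice of 3 mo. At 19 mo the values were 1290, 1148 and 1577 CPM in wild-type and 1138, 1188, 996 and 755 CPM in V338Y mice. Wild-type age groups were separated by a small gap, while V338Y groups overlapped. The wild-type difference of 0.49 ± 0.15 on the log2 scale (edgeR adjusted p = 0.0277) lost its call without 19 mo mouse 5 (edgeR adjusted p = 0.0764) and without 3 mo mouse 1 (0.0563), mouse 2 (0.0694) or mouse 3 (0.0760), as edgeR adjusted p-values. In V338Y mice the log2 fold change was -0.19 ± 0.16 (edgeR adjusted p = 0.328).

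**Figure D2:**
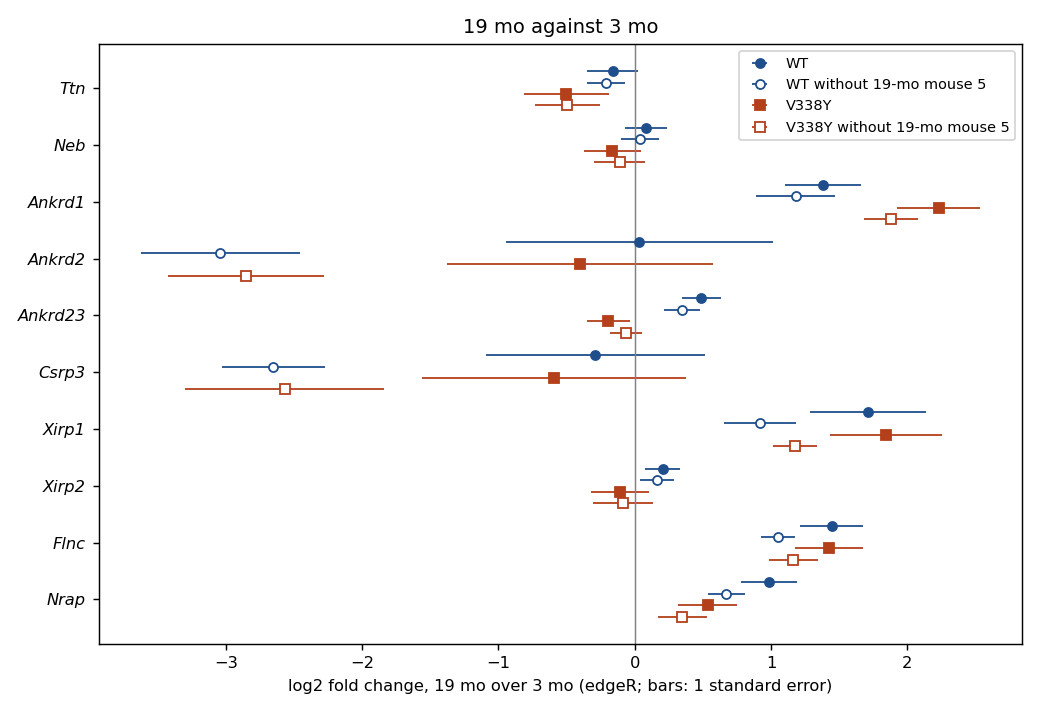
Log2 fold change of each member from 3 mo to 19 mo by edgeR (horizontal axis, bars 1 standard error) in wild-type (WT, circles) and V338Y mice (squares), with open symbols for the fit without the 19 mo mouse numbered 5. Ankrd2 and Csrp3 lie near 0 with wide bars in the fit of all mice and between -3.04 and -2.57 without that mouse.

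Ankrd2 and Csrp3 are known for high expression in slow fibres and after stretch, and both were decided by 1 mouse of each genotype at 19 mo. Ankrd2 (chr19:42036000-42045110, plus strand) stood at 25.8, 34.3, 47.0 and 39.3 CPM in wild-type and at 33.4, 82.2, 18.3 and 19.2 CPM in V338Y mice of 3 mo. At 19 mo it stood at 0.995, 8.22 and 104.3 CPM in wild-type and at 8.11, 4.09, 3.61 and 97.7 CPM in V338Y mice, the last value of each being mouse 5. 5 of the 7 mice of 19 mo thus lay below all 3 mo mice, and the mice numbered 5 lay above all of them. The log2 fold change with age was 0.03 ± 0.98 (edgeR adjusted p = 0.982) in wild-type and -0.40 ± 0.98 (edgeR adjusted p = 0.752) in V338Y mice. Without mouse 5 it was -3.04 ± 0.58 (edgeR adjusted p = 0.00593) and -2.85 ± 0.57 (edgeR adjusted p = 0.00296).

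Csrp3 (chr7:48830398-48848033, minus strand) encodes muscle LIM protein, which binds telethonin and alpha-actinin at the Z-disc. It was at 20.1, 18.7, 20.8 and 23.1 CPM in wild-type and at 26.8, 88.3, 13.1 and 13.7 CPM in V338Y mice of 3 mo. At 19 mo the values were 1.43, 5.33 and 44.8 CPM in wild-type and 9.62, 5.97, 2.01 and 74.5 CPM in V338Y mice. As for Ankrd2, the mice numbered 5 were high and the other 19 mo mice were below all 3 mo mice, as 51.9% (wild-type) and 49% (V338Y) of all genes were separate in either direction once mouse 5 was set aside. V338Y mouse 2 was the highest at 3 mo. The log2 fold change of -0.29 ± 0.80 (edgeR adjusted p = 0.802) in wild-type mice became -2.65 ± 0.38 (edgeR adjusted p = 0.00159) without mouse 5. In V338Y mice -0.59 ± 0.97 (edgeR adjusted p = 0.635) became -2.57 ± 0.73 (edgeR adjusted p = 0.0165). Without these mice 5 members passed the threshold in V338Y mice and 6 in wild-type mice, beside 47.1% and 29.7% of all genes. The mice left out were singled out after their values had been seen.

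The summed CPM of 9 slow-fibre genes (Myh7, Tnnt1, Tnni1, Tnnc1, Myl2, Myl3, Atp2a2, Casq2 and Tpm3) was 928 in wild-type mouse 5 and 3013 in V338Y mouse 5. The other 19 mo mice ranged from 84.9 to 494 and the 3 mo mice from 75.4 to 221 CPM. V338Y mouse 2, the 3 mo mouse with the highest Ankrd2 and Csrp3, also had the highest slow-fibre sum of its age. Other mice did not follow this order. Wild-type 19 mo mouse 4 had a slow-fibre sum of 494 CPM beside low Ankrd2 and Csrp3. V338Y 3 mo mouse 3 had the next highest sum of its age, 188 CPM, but the lowest Ankrd2 and Csrp3 of all 3 mo mice. V338Y 19 mo mice 2 and 4, at 185 and 169 CPM, were above every 3 mo wild-type mouse (86.7 to 104.0 CPM) in this sum and below all of them in both genes. Markers of neutrophils (S100a8, S100a9, Retnlg and Ngp) summed to 428 CPM in V338Y mouse 5, to 4.30 CPM in wild-type mouse 5 and to at most 19.1 CPM in the other mice. Ngp was at 0 in 10 of the 15 mice. The part of fibre type and of these other cells in the levels of Ankrd2 and Csrp3 was not tested.

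**Figure D3:**
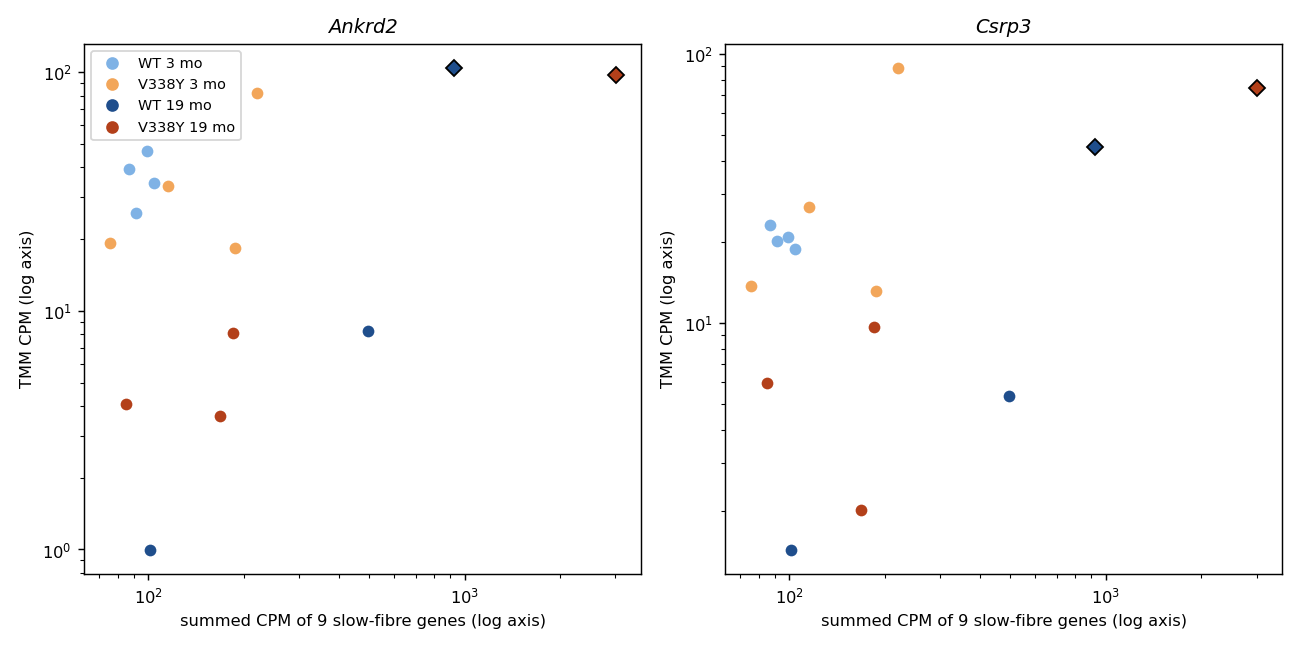
Level of Ankrd2 (left) and Csrp3 (right) in CPM against the summed CPM of 9 slow-fibre genes, both on log axes, 1 point per mouse, coloured by group, with diamonds for the 19 mo mice numbered 5. The diamonds lie at the upper right, at slow-fibre sums of 928 and 3013 CPM, and the other 19 mo mice lie below the 3 mo mice.

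The giant proteins were not called in either genotype. Ttn (chr2:76703980-76982547, minus strand) ran from 136232 to 178841 CPM in 3 mo wild-type and from 144626 to 179127 CPM in 3 mo V338Y mice. At 19 mo it was at 151286, 126395 and 150668 CPM in wild-type and at 86980, 147924, 110084 and 115401 CPM in V338Y mice. The groups overlapped in both genotypes, although 3 of the 4 V338Y mice of 19 mo lay below all 3 mo mice. The log2 fold change was -0.16 ± 0.19 (edgeR adjusted p = 0.528) in wild-type animals and -0.50 ± 0.31 (edgeR adjusted p = 0.206) in V338Y mice, where DESeq2 gave an adjusted p of 0.00401.

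Neb (chr2:52136647-52378474, minus strand) lay between 16336 and 22745 CPM in 3 mo wild-type, 17143 and 21402 CPM in 3 mo V338Y, 18959 and 21655 CPM in 19 mo wild-type and 14519 and 22029 CPM in 19 mo V338Y mice. Its groups overlapped throughout, with log2 fold changes with age of 0.08 ± 0.15 in wild-type and -0.16 ± 0.21 in V338Y mice. Xirp2 (chr2:67446002-67526614, plus strand), which encodes the larger Xin protein, ranged from 3245 to 4273 CPM at 3 mo. Its 19 mo values were 4139, 4170 and 4422 CPM in wild-type and 2474, 4796, 2717 and 3248 CPM in V338Y mice. The V338Y mice of 19 mo thus held both the lowest and the highest Xirp2 values, and the log2 fold change with age was 0.20 ± 0.13 in wild-type animals and -0.11 ± 0.21 in V338Y animals. Ttn, Neb and Xirp2 lie on the chromosome of Mrps5 at distances of 50.6, 75.2 and 60.1 megabases from it.

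Within a mouse Ttn and Neb moved together, and their ratio was steadier than either level. Ttn counts were 7.86 to 8.34 times the Neb counts in 3 mo wild-type and 8.37 to 8.58 times in 3 mo V338Y mice. They were 6.67 to 7.05 times the Neb counts in 19 mo wild-type and 5.99 to 7.38 times in 19 mo V338Y mice. All 7 ratios at 19 mo lay below all 8 at 3 mo. The ratio was looked at after the levels had been seen and was not tested. Over 1281 other genes with more than 10000 exonic bases, the median log2 level relative to 3 mo wild-type mice was -0.07 to 0.07 in mice of 3 mo and 0.22 to 0.33 in mice of 19 mo. The median transcript of this length was thus higher at 19 mo, while Ttn was not, and the part of length in the levels of the members was not tested.

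**Figure D4:**
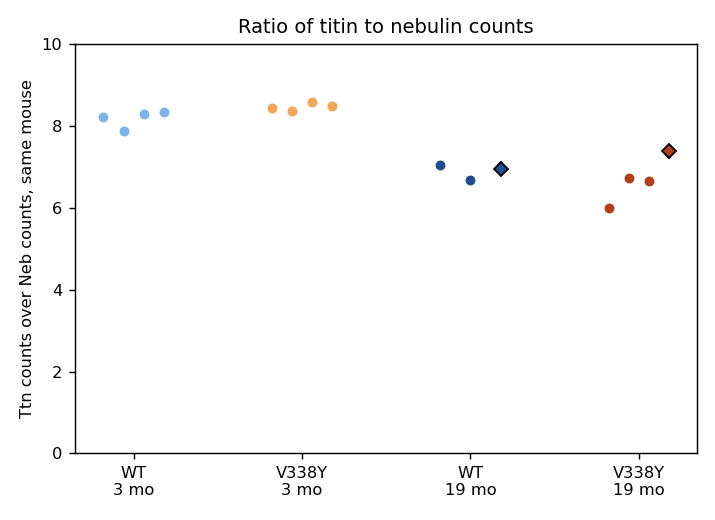
Counts of Ttn divided by counts of Neb in the same mouse (vertical axis from 0), 1 point per mouse in the 4 groups, with diamonds for the 19 mo mice numbered 5. The 3 mo mice lie between 7.86 and 8.58 and the 19 mo mice between 5.99 and 7.38.

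Between genotypes 0 of the 10 members passed an edgeR adjusted p under 0.05 at either age, and 0 did so with DESeq2. At 3 mo 0.075% of 13333 genes passed with edgeR, and 1293 had an unadjusted p under 0.05. At 19 mo 0.0434% of 13833 genes passed, and 1235 had an unadjusted p under 0.05. With mice paired by number in a replicate block 0.881% of genes passed at 19 mo and again 0 members. At 3 mo the members nearest to a difference were Ankrd23, at 0.30 (95% interval 0.09 to 0.52) on the log2 scale and higher in V338Y mice (unadjusted p = 0.00990, edgeR adjusted p = 0.409), and Xirp1, at -0.45 (-0.92 to 0.02; edgeR adjusted p = 0.533). The V338Y mice of 3 mo had Ankrd23 within or above the wild-type range, with 3 of the 4 above it. For Ttn, Neb, Xirp2, Flnc and Nrap the 95% intervals at 3 mo stayed between -0.46 and 0.27, and those of Ankrd2 (-0.85 to 0.98) and Csrp3 (-0.35 to 1.91) were wider.

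At 19 mo the intervals were wider for every member. Nrap, at -0.52 (-1.20 to 0.16), and Ankrd1, at 0.44 (-0.32 to 1.21), were the members with the largest differences apart from Csrp3, and both intervals include 0. Mouse numbers were taken to pair the 19 mo mice of the genotypes, which leaves out V338Y mouse 3, as it has no partner. In that mouse Neb at 22029 CPM and Xirp2 at 4796 CPM were above all 19 mo wild-type mice, and Nrap was below all of them. Its Ttn, Ankrd1, Ankrd2, Ankrd23, Csrp3, Xirp1 and Flnc were within the wild-type range. Ankrd1 in that mouse, at 19.4 CPM, was the lowest of the 19 mo V338Y mice. It was below wild-type mice 4 and 5, at 24.4 and 30.9 CPM. Within pairs 2, 4 and 5 the level of 7 members was lower in the V338Y mouse in all 3 pairs, as for 25.4% of all genes. These were Ttn, Neb, Ankrd23, Xirp1, Xirp2, Flnc and Nrap. Ankrd1 was higher in all 3 pairs, as for 17.7% of all genes, and Ankrd2 and Csrp3 differed in sign between pairs. Some of these gaps were small, such as that of Flnc in pair 2, at 949 and 942 CPM. In the fit with the replicate block, which leaves out V338Y mouse 3, Ankrd1 was at 0.60 ± 0.15 (edgeR adjusted p = 0.123), Xirp2 at -0.56 ± 0.15 (edgeR adjusted p = 0.126) and Nrap at -0.48 ± 0.14 (edgeR adjusted p = 0.144), and none passed. The 95% interval of Ankrd2 ran from -3.71 to 2.98 and that of Csrp3 from -2.47 to 3.44. Without both mice numbered 5 the log2 differences of Ankrd2 and Csrp3 were 0.24 ± 0.72 and 0.84 ± 0.67. Nrap was then lower in the 3 remaining V338Y mice than in the 2 wild-type mice without overlap, as 26.2% of all genes were separate then in either direction. The gap was narrow, with V338Y mouse 4 at 1394 CPM and wild-type mouse 2 at 1398 CPM. Nrap was at -0.41 ± 0.24 in that fit (edgeR adjusted p = 0.705).

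**Figure D5:**
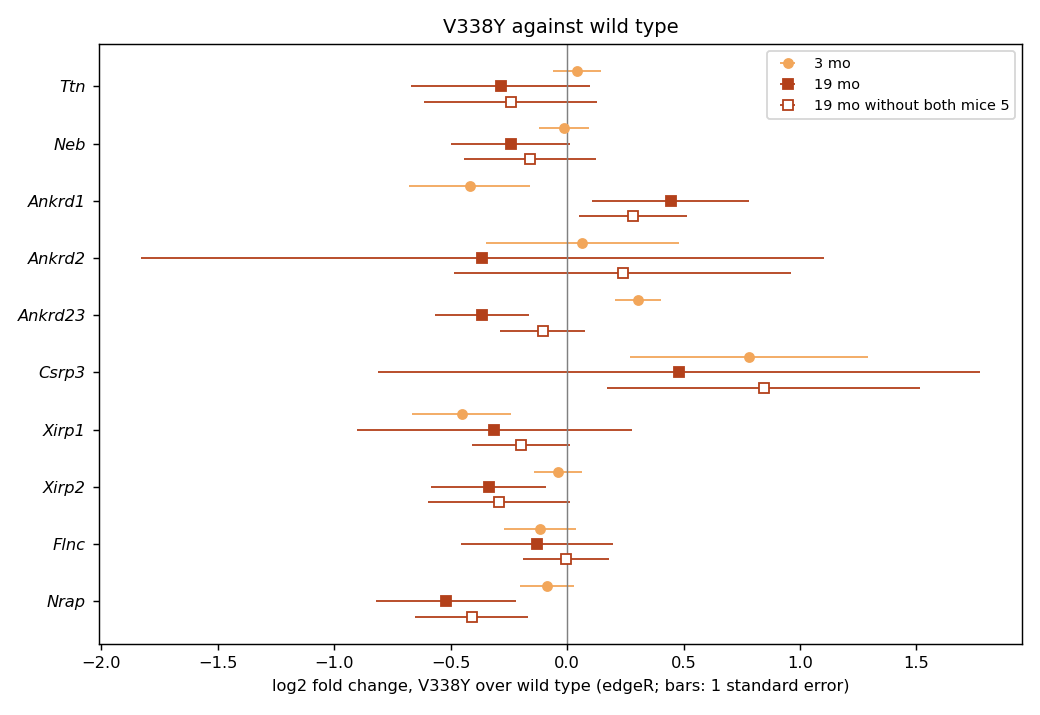
Log2 fold change of each member between V338Y and wild-type mice by edgeR (horizontal axis, bars 1 standard error) at 3 mo (circles), at 19 mo (filled squares) and at 19 mo without both mice numbered 5 (open squares). No member passed the threshold, and the bars of Ankrd2 and Csrp3 at 19 mo are the widest.

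The difference with age was also compared between the genotypes in a fit of all 15 mice. For this interaction 0 members and 0% of 14128 genes passed an edgeR adjusted p under 0.05, 1361 genes had an unadjusted p under 0.05, and DESeq2 called 26 genes and 0 members. Ankrd23 was the member nearest to the threshold, with a difference with age that was lower in V338Y mice by -0.69 on the log2 scale (95% interval -1.16 to -0.23, unadjusted p = 0.00639, edgeR adjusted p = 0.405). For Ankrd1, called with age in both genotypes, the interaction was 0.84 (-0.14 to 1.82), and for Nrap, called in wild-type mice only, it was -0.46 (-1.14 to 0.23). A difference between the genotypes in the age change of these genes was therefore not shown.

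Other genes of the same structures were read from lists of partners, called by the same thresholds, beside the 36.2% of all genes called in wild-type (17.8% lower) and the 46.9% called in V338Y mice (22.5% lower). Among 14 YAP/TEAD factors and targets, a pathway that responds to stretch and includes Ankrd1 as a known target, 7 rose and 0 fell in wild-type mice with age, and 8 rose and 0 fell in V338Y mice, which makes 50% and 57.1% of the list. The median log2 fold change of the list was 0.55 and 0.74, beside 0.02 and 0.07 over all genes. Tead1, a TEAD factor, rose by 1.69 ± 0.14 and 1.28 ± 0.24 on the log2 scale, Amotl2, an angiomotin that binds YAP, by 1.21 and 1.24, and Vgll2, a muscle cofactor of TEAD, by 2.57 and 1.85 in wild-type and V338Y mice. Tead3 rose by 1.05 and 0.91. Ccn1, a secreted matricellular protein and YAP target, rose by 1.57 in wild-type mice and was at 0.90 in V338Y mice, where it was not called.

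Of 15 genes of the integrin costamere, which links the Z-disc to the membrane, 8 rose and 1 fell in wild-type mice and 6 rose and 3 fell in V338Y mice, 60% of the list in each. The list median was 0.37 and 0.26. Pxn, which encodes paxillin, rose by 1.16 and 1.12 on the log2 scale, and Parvb, which encodes beta-parvin, by 1.48 and 1.98. Tln1, which encodes talin 1, rose by 0.78 and 1.003, and Zyx, which encodes zyxin, by 0.70 and 1.07. The genes that fell were Itgb1 in both genotypes (-0.33 and -0.37) and, in V338Y mice, Tln2 for talin 2 (-0.36) and Itgb1bp2 (-0.61). Of 11 genes listed as partners of filamin C or related to it, 5 rose and 2 fell in wild-type mice, and 5 rose and 1 fell in V338Y mice (63.6% and 54.5%), with list medians of -0.02 and 0.09. Bag3, the co-chaperone that directs damaged filamin to autophagy, rose by 1.41 ± 0.14 and 1.52 ± 0.22, and the small heat shock protein Hspb7 by 2.79 and 2.72. Hspa8, the chaperone that works with Bag3, fell in both genotypes, at -0.96 and -0.44.

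The Z-disc list was divided. Of its 24 genes 6 rose and 6 fell in wild-type mice, and 3 rose and 8 fell in V338Y mice. The share called was 50% (wild-type) and 45.8% (V338Y), the latter near that of all genes. Mypn, which encodes the Z-disc protein myopalladin that binds nebulin and Ankrd1, rose by 0.99 and 0.92 on the log2 scale. Tcap, which encodes telethonin, the cap of titin at the Z-disc, was at -1.10 ± 0.16 and -1.61 ± 0.16 and thus fell in both. Trim54, a ubiquitin ligase (-0.83 and -0.95), and Pdlim5 (-0.80 and -0.94) fell in both as well. Of 14 M-band and giant sarcomere genes, 7 rose and 2 fell in wild-type mice and 4 rose and 3 fell in V338Y mice, with 64.3% and 50% called. Obsl1, which encodes a relative of titin at the M-band, rose by 0.97 in wild-type and by 1.19 in V338Y mice. Smyd1, a methyltransferase needed for myosin assembly, fell in both, at -0.65 and -0.96.

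Of 22 genes of the thin and thick filaments, 7 rose and 7 fell in wild-type mice, and 0 rose and 10 fell in V338Y mice. This was 63.6% of the list in wild-type animals and 45.5% in V338Y animals, where 46.9% of all genes passed in either direction. All 10 called in V338Y animals were lower, and 22.5% of all genes were called lower there. Myl1, a light chain of fast myosin, was at -1.04 and -1.53, and Tnnc2, the troponin C of fast fibres, at -0.93 and -1.34. Among the 9 slow-fibre genes, several of which are also in the filament list, 8 rose and 0 fell in wild-type mice, led by Myh7 at 5.91 ± 1.01. In V338Y mice 0 of the 9 passed, with Myh7 at 4.42 ± 1.84 (edgeR adjusted p = 0.0733). Without the wild-type 19 mo mouse 5, 6 slow-fibre genes rose. The YAP/TEAD list then had 6 higher and 0 lower in wild-type mice and 8 and 0 in V338Y mice without its mouse 5. In wild-type mice without mouse 5, where 29.7% of all genes passed, the costamere list had 6 higher and 2 lower. The M-band list then had 5 and 1, the Z-disc list 6 and 4 and the filament list 6 and 7. In V338Y mice without mouse 5, where 47.1% of all genes passed, these lists had 6 and 3, 3 and 3, 4 and 9, and 0 and 11. Between genotypes, and for the interaction, 0 genes of any of these lists passed.

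Some lists of markers of other cells moved with age and others did not. Markers of smooth muscle and pericytes (Myh11, Acta2, Cnn1, Rgs5 and Tagln) summed to 284 to 387 CPM in 3 mo mice and 390 to 654 CPM in 19 mo mice, and 3 of the 4 tested rose in wild-type and 4 of 5 in V338Y mice. Endothelial markers (Pecam1, Cdh5, Kdr and Tek) summed to 138 to 174 CPM at 3 mo and 191 to 318 CPM at 19 mo, and 2 of 4 rose in wild-type and 3 of 4 in V338Y mice. Macrophage markers (Cd68, Adgre1, Csf1r and Mrc1) summed to 79.0 to 125 CPM at 3 mo and 113 to 191 CPM at 19 mo, and 3 of 4 rose in each genotype. All 4 neutrophil markers rose in V338Y mice, whose mouse 5 held most of these counts, and 0 of the 2 tested did in wild-type mice. Of 5 satellite cell markers 3 rose in wild-type and 2 in V338Y mice. Fibroblast markers (Col1a1, Dcn, Dpt, Lum and Pdgfra) were divided, with 1 of 5 higher and 1 lower in wild-type mice and 0 higher and 1 lower in V338Y mice, and their sums overlapped at 861 to 1120 CPM at 3 mo and 583 to 1120 CPM at 19 mo. Adipocyte markers (Adipoq, Cidec, Lep and Plin1) differed in sign, with 1 of 4 lower and a median of -0.78 in wild-type mice and 1 of 4 higher and a median of 1.12 in V338Y mice, both on the log2 scale. Skeletal fibre markers summed to 62799 to 83297 CPM at 3 mo and 29137 to 58283 CPM at 19 mo, with 3 of 5 lower in wild-type and 5 of 5 in V338Y mice. None of the smooth muscle, endothelial, macrophage or fibre markers was at 0 in any mouse. The part of these cells in the higher Ankrd1, Xirp1 and Flnc, which are read in whole muscle, was not tested.

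Deviations of the members from their group means show which of them varied together among the mice. They are described over all 15 mice, which share group means and scaling, and over 13 mice without those numbered 5 at 19 mo. Pearson's r was 0.964 between Ankrd2 and Csrp3 (0.885 over 13 mice) and 0.941 between Ttn and Neb (0.975). Ankrd1 and Xirp1 were at 0.824 (0.790) and Ttn and Xirp2 at 0.814 (0.812), while Xirp1 and Flnc went from 0.894 to 0.614. Ankrd1 was weakly and negatively correlated with Ttn, at -0.356 (-0.568), and with Neb, at -0.472 (-0.518). Spearman's rho over 15 mice was -0.211 and -0.318. Among 12817 other genes the one most like both Ttn and Neb was Foxo4, a FoxO transcription factor, at r of 0.971 and 0.938, followed by Cmya5 at 0.968 and 0.927, which encodes myospryn, another large muscle protein. For Ankrd1 they were Map4k2 at 0.960 and Tagln at 0.926, the latter one of the smooth muscle markers. For Ankrd2 they were Myoz2, the calsarcin of slow fibres, at 0.972 (0.870 over 13 mice), the kelch-like gene Klhl34 at 0.970 (0.929) and Myh2 at 0.962 (0.834), and for Csrp3 the LIM protein gene Fhl1 at 0.952. Rcan1 was among the genes most like Xirp1, at 0.930 (0.864 over 13 mice). Flnc was most like the co-chaperone gene Dnaja4, at 0.945 (0.809), and Nrap most like Ifrd1, at 0.968 (0.923). For Ankrd23 the highest r was 0.858, with Bicdl1, and for Xirp2 it was 0.922, with Mir1902.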

How the data were processed

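RNA of quadriceps muscle was extracted from 15 mice with TRIzol and sequenced. The submitters' processing notes name CASAVA 1.8, bcl2fastq 1.8.4, STAR 2.4.2a and the build GRCm38, while the methods name an earlier mouse assembly. Expected counts by RSEM, as whole numbers, were deposited by the authors for every gene and needed no rounding. RSEM divides reads that match several genes, and no strand setting is given in the sources used here. Identifiers (39179) were matched to GENCODE names on GRCm38 (37693 matched). Groups came from the labels. Mice of a group differed by more than counting noise (chi-square per degree of freedom 5.85 to 111), and 0 file pairs were identical.

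The filter kept a gene that reached 10 counts in 50% or more of a compared group. Comparisons used TMM and the quasi-likelihood test of edgeR 4.0.16 (R 4.3.3, limma 3.58.1) on the groups compared, or on all 15 mice for the interaction, with Benjamini-Hochberg adjustment over all genes tested and a threshold of 0.05. Standard errors derive from the F statistic. The code was tested on simulated data. The members, partner lists and tests were chosen with earlier results of these data known. From each partner list up to 4 genes with the smallest adjusted p in a comparison are named, and in addition the costamere genes that fell. For each member the 3 most correlated genes with a mean of at least 1 CPM were found, on log2 CPM with a pseudocount of 0.5. Alternatives were RLE size factors, DESeq2 1.42.0, no filter, TMM without the 10 most counted genes, a fit of all 15 mice, an unadjusted p under 0.005 for age, a replicate block, each mouse left out and, added after seeing the data, both 19 mo mice numbered 5 left out.

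Mice with the same number in both genotypes of 19 mo deviated together from their group means (r of 0.133 to 0.378 over 3 pairs). Mice of unlike numbers ran from -0.375 to 0.444 over 9 pairs, so the highest r was of unlike numbers. The numbers were taken to pair the 19 mo mice, an assumption that the labels do not state, and in the other comparisons they were not. A few genes that the naming rule selects and 1 marker list are not reported here.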

Additional observations from a re-analysis of the deposited data

Results flagged for a closer look

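Among 30 combinations of a member and a group of 4 mice, 4 had a mouse far from the others by Dixon's criterion, which chance alone reaches in about 1 of 20 groups. Of these, 3 concern V338Y mouse 5 of 19 mo, the highest of its group. Its Ankrd2 was 97.7 CPM with the others at 3.61 to 8.11, its Csrp3 was 74.5 CPM with the others at 2.01 to 9.62, and its Xirp1 was 372 CPM with the others at 99.8 to 124.4. The last is Ankrd23 in V338Y mouse 4 of 3 mo, at 1282 CPM with the others at 1133 to 1144 CPM. The 19 mo wild-type group, with 3 mice, was too small for this criterion.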

How the results depend on the processing

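The counts of members called between genotypes and for the interaction were 0 under every alternative run. With age in wild-type mice 5 were called, 6 with the replicate block and 4 to 6 when each mouse was left out. In V338Y mice 3 were called, 5 with DESeq2 (with Ttn and Nrap added), 5 with the replicate block and 3 to 5 when each mouse was left out, 5 being reached without 19 mo mouse 5. By mouse number, deviations correlated at -0.225 to 0.150 in the 4 pairs of 3 mo. They correlated at -0.127 to 0.0164 in the 3 V338Y age pairs and near 0 in the 2 wild-type age pairs. The numbers were therefore not taken to pair the mice of these comparisons, which the labels do not settle. Pair 1 of 3 mo, at 0.150, was above pair 2 of 19 mo, at 0.133. The block in the age comparisons keeps mice 2 and 4 of wild-type and 2, 3 and 4 of V338Y mice and so leaves out mouse 5 by construction. Over the members' own values 696 alternatives kept direction and call, 50 turned the direction, 9 gained and 5 lost a call, all 5 for Ankrd23 in wild-type mice.

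With the replicate block the log2 difference of Ankrd2 became -3.30 for age in wild-type mice, -0.15 for genotype at 3 mo, 0.30 for genotype at 19 mo and 0.41 for the interaction, where Csrp3 became 0.41 and Flnc 0.0173. Without the filter Ankrd2 was at -0.0035 for age in wild-type mice. Without both mice numbered 5 Ankrd2 was at 0.24 for genotype at 19 mo and 0.19 for the interaction, where Csrp3 was at 0.0816 and Flnc at 0.11. The cause was not tested.

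Leaving out each mouse turned these log2 differences. For age in wild-type mice Neb ran from -0.00080 to 0.16, Ankrd2 from -3.04 to 0.61 and Csrp3 from -2.65 to 0.27. For age in V338Y mice Ankrd2 ran from -2.85 to 0.28, Csrp3 from -2.57 to 0.38 and Xirp2 from -0.35 to 0.0100. At 3 mo between genotypes Ttn ran from -0.0266 to 0.10, Neb from -0.0894 to 0.0660, Ankrd2 from -0.61 to 0.30, Csrp3 from -0.18 to 1.06 and Xirp2 from -0.0955 to 0.0387. At 19 mo between genotypes Ankrd2 ran from -2.81 to 2.69, Csrp3 from -1.50 to 2.83, Xirp1 from -0.99 to 0.48 and Flnc from -0.40 to 0.26. For the interaction Ankrd2 ran from -2.87 to 2.62, Csrp3 from -2.27 to 2.05, Xirp1 from -0.53 to 0.91 and Flnc from -0.27 to 0.36.

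Of all genes, the number called at 3 mo between genotypes was 10 with edgeR, 66 with DESeq2 and 33 without the filter. At 19 mo it was 6, 62 with DESeq2, 14 without the filter and 120 with the block, and for the interaction 0, 26, 5 and 127. For age in wild-type mice it was 4940, and 1975 with the block. By the longest transcript instead of merged exons, Neb in 3 mo wild-type mice was at 872 CPM per kilobase and Ankrd1 at 4.70. Replicate mice differed by more than counting error, and the 95% intervals of the report bound the differences that 3 or 4 mice in a group leave possible.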

Other observations

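Fast myosin transcripts of the 19 mo mice numbered 5 differed from those of the other mice as well. Myh4, the myosin of fast 2B fibres, was at 40204 CPM in wild-type mouse 5 and at 22410 CPM in V338Y mouse 5, while Myh1, the myosin of 2X fibres, was at 9030 and 14856 CPM. In the other 19 mo mice Myh4 ranged from 39868 to 79604 CPM and Myh1 from 1867 to 6693 CPM, so the wild-type mouse 5 lay within the range of Myh4 and both mice lay above that of Myh1.

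Markers of satellite cells and regenerating fibres (Pax7, Myod1, Myog, Myh3 and Myh8) summed to 72.2 CPM in V338Y mouse 1 of 3 mo, to 17.0 to 28.6 CPM in the other 3 mo mice and to 35.6 to 58.2 CPM at 19 mo. Flnc in that mouse, at 575 CPM, was above all other 3 mo mice. Its other members, such as Ankrd1 at 7.93 and Nrap at 823 CPM, were within or below the levels of the other 3 mo mice. Among these Xirp1, at 62.8 CPM, was the highest of the 3 mo V338Y mice but within the wild-type range.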
